A study of Mus musculus with 24 samples.

Results

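The dopamine receptor genes of the mouse are Drd1, Drd2, Drd3, Drd4, and Drd5, and all 5 were found in the GENCODE vM21 annotation, among 21938 protein-coding genes on chromosomes 1 to 19, X, and Y. A peak was assigned to a receptor gene when it overlapped the gene body or the 50 kb on either side by at least 1 base. This gave 83 of 314936 peaks, which merge into 28 loci. The family was selected on measured values of these lists, because the highest FOXP1 summit on any nuclear chromosome at E18.5 (embryonic day) lay at Drd1. That summit and its comparison with E15.5, with the other transcriptional regulators (TRs), and with the other receptors are therefore descriptions, and no test was run on them.

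ChIP-seq enriches sheared chromatin with an antibody against a protein, and a peak is a place where the reads of such a library pile up. The chromatin came from the cortex of untreated wild-type (WT) mice at the 2 stages, E15.5 and E18.5. It was precipitated with an antibody against FOXP1, which belongs to the forkhead family, against TCF7L2, the effector of Wnt signaling at its target genes (the labels write TCF4 for it), or against ARID1B, which is part of the BAF complex that moves nucleosomes. Each TR and stage had 2 ChIP libraries and 2 input libraries, 24 in all, and 1 peak list stands for each TR and stage, so there are no replicate errors. The study's methods say that replicates were merged before peaks were called, and the lists were read so here, although each is filed with the first ChIP replicate. The intervals given below are exact 95% Poisson or binomial intervals on reads, cover counting error only, and say nothing of the spread between animals. The tissue is bulk, so binding in more cells and stronger binding per cell cannot be told apart.

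Dopamine receptors are G protein-coupled receptors for the neurotransmitter dopamine. The D1-like receptors, encoded by Drd1 and Drd5, couple to the stimulatory G proteins Gs and Golf and raise cyclic AMP, and the D2-like receptors, encoded by Drd2, Drd3, and Drd4, couple to inhibitory Gi and Go and lower it. Drd1 and Drd2 are best known as markers of the direct- and indirect-pathway projection neurons of the striatum, where FOXP1 is abundant, and both are also used by subsets of cortical neurons.

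The sequences that carry the main observations are shown first. They were read from GRCm38.p6 on the strand of the gene, 5′ to 3′. In the first 3, the 200 bp before the annotated TSS of a receptor bound by every list (Drd1 and Drd4) and of one without a promoter peak in any list (Drd3), capitals mark CpG dinucleotides.
Drd1 promoter, chr13:54055706-54055905, minus strand: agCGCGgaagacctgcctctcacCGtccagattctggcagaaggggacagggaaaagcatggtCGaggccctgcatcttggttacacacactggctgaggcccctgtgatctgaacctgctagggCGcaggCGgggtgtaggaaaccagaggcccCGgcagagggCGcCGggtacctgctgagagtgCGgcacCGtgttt
Drd4 promoter, chr7:141291806-141292005, plus strand: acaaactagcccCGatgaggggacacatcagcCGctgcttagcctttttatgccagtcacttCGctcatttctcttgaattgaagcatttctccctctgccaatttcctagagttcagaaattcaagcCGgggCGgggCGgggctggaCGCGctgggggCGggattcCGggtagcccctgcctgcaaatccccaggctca
Drd3 promoter, chr16:43753826-43754025, plus strand: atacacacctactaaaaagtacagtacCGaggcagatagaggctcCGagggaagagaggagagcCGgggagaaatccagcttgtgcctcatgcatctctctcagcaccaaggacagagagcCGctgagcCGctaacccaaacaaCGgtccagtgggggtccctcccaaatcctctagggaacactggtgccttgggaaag

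These stretches hold 11 CpG at Drd1, 10 at Drd4, and 6 at Drd3, with a GC content of 63.0%, 57.0%, and 55.5%. The 30 bases centered on the FOXP1 summit of E18.5 at Drd1 lie inside the gene, in the 5′ UTR, and hold no CpG (the capital is the summit base).
Drd1 summit of FOXP1 at E18.5, chr13:54054332-54054361, minus strand: tggcttggattgctAtggagatgctcctga

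The next 2 stretches are the 200 bp around the FOXP1 summit of E18.5 at the distal loci that every list shared, in an intron of Drd3 and upstream of Drd5, with CpG in capitals. They hold 7 and 8 CpG.
Drd3 intron locus, chr16:43802050-43802249, plus strand: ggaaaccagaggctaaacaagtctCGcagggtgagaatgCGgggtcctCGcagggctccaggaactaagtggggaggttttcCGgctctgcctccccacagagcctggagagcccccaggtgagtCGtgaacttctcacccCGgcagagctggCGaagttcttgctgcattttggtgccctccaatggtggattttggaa
Drd5 upstream locus, chr5:38307613-38307812, plus strand: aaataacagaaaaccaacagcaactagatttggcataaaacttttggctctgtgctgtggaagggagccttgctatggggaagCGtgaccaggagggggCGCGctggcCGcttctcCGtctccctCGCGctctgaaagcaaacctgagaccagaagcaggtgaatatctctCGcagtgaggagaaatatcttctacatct

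Drd1 had a promoter peak, one overlapping the 2000 bp before a TSS, in all 6 lists, and the FOXP1 peak of E18.5 stood far above the rest. Height is given as fold enrichment, the number of reads over the summit relative to the background level of the list (with 1 added to both). The FOXP1 summit was 6.20 at E15.5 (counting interval 4.61 to 8.18, 48 reads) and 59.1 at E18.5 (53.5 to 65.2, 400 reads). ARID1B reached 2.77 at E15.5 and 4.49 at E18.5. TCF7L2 reached 4.00 at E15.5 and 4.16 at E18.5. Of the 6 values only the FOXP1 value at E18.5 was above 7, and the other 5 were low for promoter summits of their lists, above only 0.6% (ARID1B, E15.5) to 20.7% (ARID1B, E18.5) of all genes with a promoter peak.

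**Figure D1:**
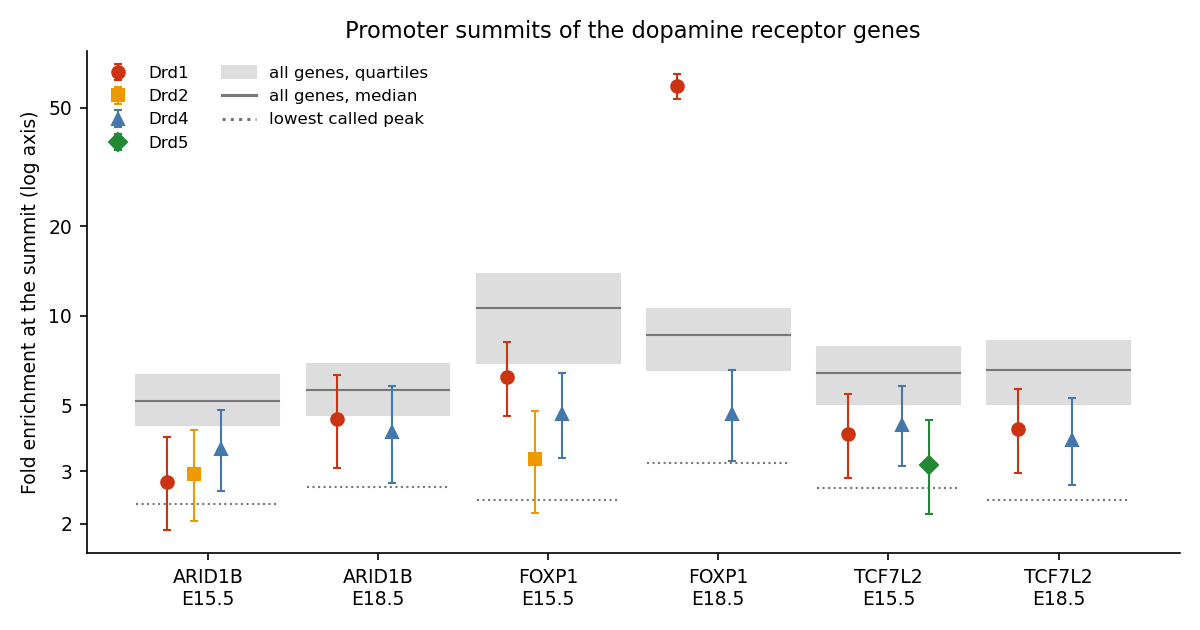
Fold enrichment at the highest promoter summit (log axis) of each receptor gene in each of the 6 lists, with exact 95% counting intervals. Gray boxes and lines give the quartiles and the median over all protein-coding genes with a promoter peak, and dotted lines the lowest peak of each list. Drd1 stands at 59.1 in FOXP1 at E18.5, from a summit inside the gene, and every other receptor value lies between 2.77 and 6.20. Drd3 has no promoter peak.

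The FOXP1 value at E18.5 was 9.53 times that at E15.5 on the scale of fold enrichment (counting interval 7.05 to 13.2). The summits compared lay at different positions, as given below, so this is not a ratio at a single site. Across the 23952 FOXP1 peaks of E18.5 with a FOXP1 peak at E15.5, which is 96.3% of the list, the median of the same ratio was 0.795, the next highest ratio was 4.84, and 25 peaks had a ratio of at least 3. Over the higher of the other 2 TRs at E18.5, the Drd1 peak stood at 13.2, against a median of 1.07 over 22984 peaks. It ranked first of 24870 nuclear peaks, ahead of the promoter of Lamp1, a lysosomal membrane protein, which stood at 52.8 at E18.5 and already at 49.2 at E15.5. The FOXP1 peak of Drd1 at E15.5 was higher than 76.3% of its list.

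The Drd1 peak was also the only nuclear peak of any list that had 400 reads at its summit. Reads extended to 200 bp cannot give more than that when 1 read is kept for each position and strand, which is the default of the peak caller, so the fold of 59.1 stands at a ceiling. The ratios of 9.53 and 13.2 that rest on it are then lower limits, and the counting intervals do not cover this. Both FOXP1 lists hold 2 mitochondrial peaks at the same 400 reads, and the highest nuclear peak of FOXP1 at E15.5 had 399. The background of the FOXP1 list at E18.5 was 2.81 reads, against 6.13 to 8.63 in the other lists, and its smaller library was the shallowest, with 26.3 M reads against 57.3 to 80.7 M. Scaled by the depth of the ChIP libraries, the Drd1 ratio was 11.5, which is a lower limit for the same reason.

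The position of the FOXP1 summit at Drd1 differed between the stages. At E15.5 the summit lay 1 bp from the TSS, and in the lists of ARID1B and TCF7L2 it lay between 50 bp upstream and 49 bp downstream of it. At E18.5 the FOXP1 summit lay 1358 bp downstream of the TSS, at position 54054347 of chromosome 13 (GRCm38), in the 5′ UTR part of exon 2. The FOXP1 peak of E15.5 ended 702 bp downstream of the TSS. The FOXP1 ratio between the stages and that over the other TRs thus compare heights at different places. The lists give no FOXP1 height at the TSS itself for E18.5. The peak, chr13:54053741-54056017, spanned 2277 bp. It ran from 312 bp upstream of the TSS across exon 1 and all 947 bp of intron 1 into exon 2, and it covered 453 of the 1338 coding bases, which belong to a single exon.

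A pair of further TSSs is annotated inside that span, 47 bp and 925 bp downstream of the first, and the summit of E18.5 lay 433 bp past the latter, which starts a non-coding transcript. Among FOXP1 peaks at promoters, summits that far inside a gene were rare, which follows largely from how the peaks were selected. A counted peak had to overlap the bases before a TSS, so such a summit needs a peak over 1000 bp wide. Counted from the nearest TSS of a protein-coding transcript, 7 of 12171 (0.0575%) lay over 1000 bp downstream at E18.5 and 34 of 15315 (0.222%) at E15.5, with medians 22 and 25 bp upstream. These counts do not show that the position at Drd1 is unusual for a peak of its width. The peak was wider than 99.8% of its list, whose median width was 486 bp, and the median over the 56 peaks with a fold above 20 was 807 bp.

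**Figure D2:**
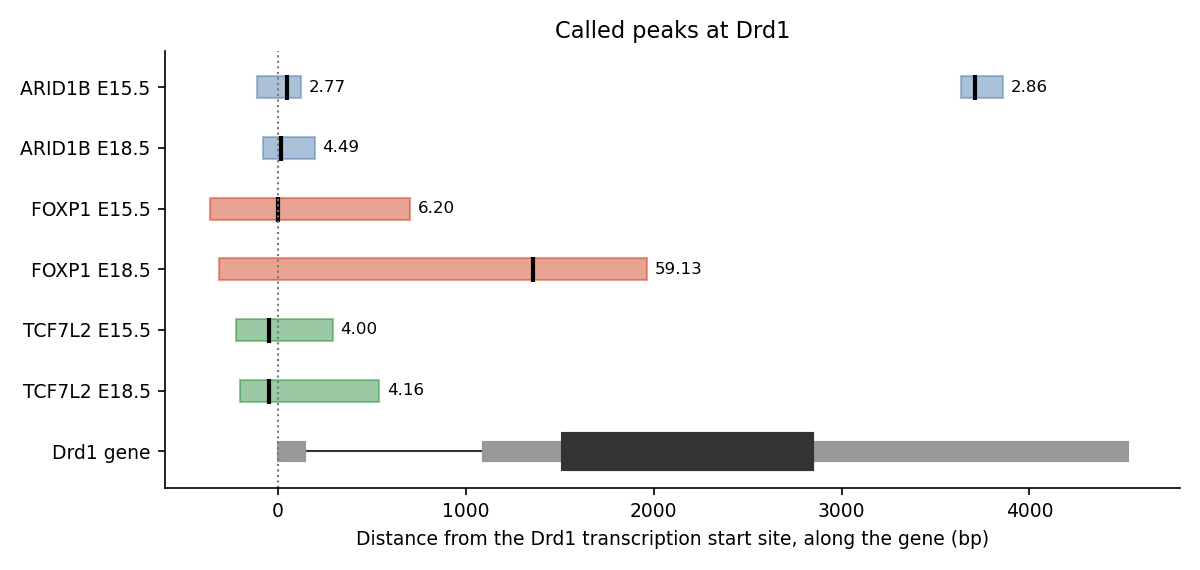
Called peaks at Drd1 in the 6 lists against distance from the TSS along the gene (bp). Bars are peaks, vertical ticks their summits, and numbers their fold enrichment. The gene is drawn below, with exons in gray and the coding sequence in black. The FOXP1 peak of E18.5 covers the promoter, intron 1, and the start of the coding sequence, with its summit at 1358 bp, while the promoter summits of the other lists lie within 50 bp of the TSS.

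Other FOXP1 peaks were also high at E18.5 and absent or low at E15.5, and those of them on exons lay in 2 genes. In the FOXP1 list of E18.5, 52 peaks had a fold of at least 10 and either no FOXP1 peak at E15.5 or one at least 3 times lower. Drd1 was 1 of them. Of the other 51, 14 had their summit in a coding exon of Foxp2, a forkhead paralog of FOXP1 and a striatal marker, with folds of 11.7 to 32.3, and 5 in a coding exon of Dixdc1, which encodes a protein of Wnt signaling, with folds of 10.7 to 14.5. None of these 19 had a FOXP1 peak at E15.5. The other 32, with folds of 10.1 to 25.1, had their summits in introns (18) or between genes (14), and 9 of them had no FOXP1 peak at E15.5.

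Foxp2 and Dixdc1 had more coding exons with a summit in that list than any other gene, 14 of 18 blocks and 6 of 22, and the other 5 lists held 1 such summit in Foxp2 (ARID1B, E18.5) and none in Dixdc1. The Drd1 peak shares with them the list and the absence of a comparable height at E15.5. It was 2277 bp wide with a lower peak at E15.5, where the high peaks of Foxp2 and Dixdc1 were 362 to 630 bp wide with none. In these lists 1 constant background gave all pairs of fold and p, so the input at a single locus does not enter a peak's fold. The part of these values in the height at Drd1 was not tested. Whether all reads under these peaks came from chromatin bound by FOXP1, rather than from other DNA such as cDNA of these genes, was not tested either.

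**Figure D3:**
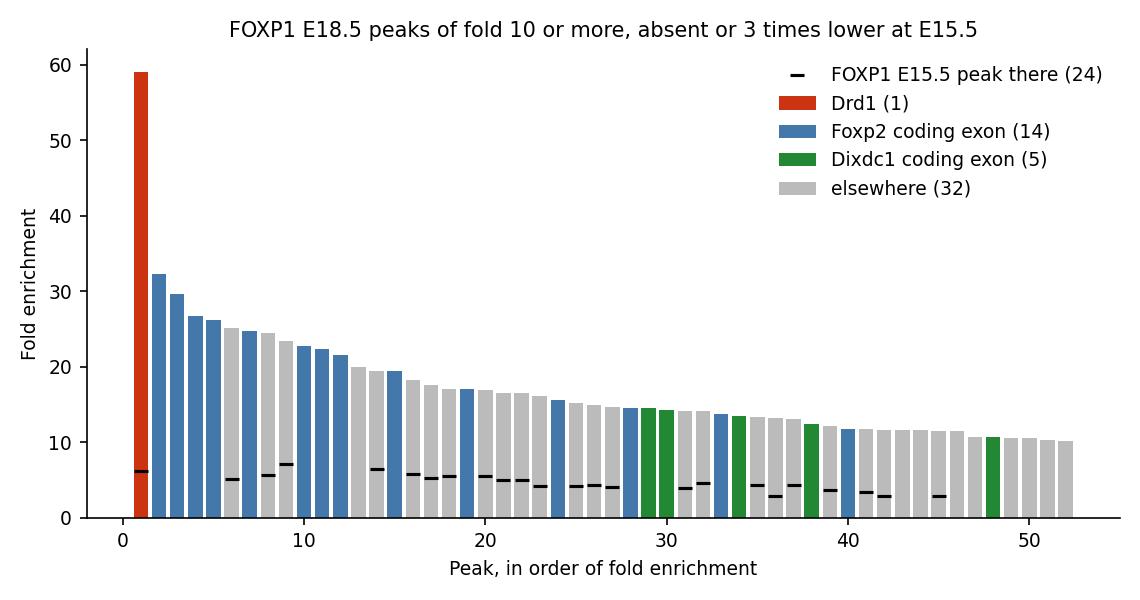
Fold enrichment of the 52 FOXP1 peaks of E18.5 with a fold of at least 10 that were absent or at least 3 times lower at E15.5, in order of height. Colors give the place of the summit, and black ticks the FOXP1 fold at E15.5 where there was a peak. Drd1 is first at 59.1, followed by 4 coding exons of Foxp2 at 26.2 to 32.3.

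The other receptors had low promoter peaks or none. ARID1B at E15.5 had a promoter peak at 3 of the 5 receptors (Drd1, Drd2, and Drd4), where 58.8% of all protein-coding genes had one. FOXP1 at E15.5 had one at the same 3 receptors (61.8% of all genes), and TCF7L2 at E15.5 had one at Drd1, Drd4, and Drd5 (57.3%). At E18.5 each TR had a promoter peak at Drd1 and Drd4 alone, against 54.9% of all genes for FOXP1, 57.3% for ARID1B, and 61.2% for TCF7L2. With 5 genes, these counts do not stand apart from the shares over all genes.

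Drd4, a D2-like receptor, was the only receptor besides Drd1 with a promoter peak in all 6 lists, and its values differed little between them. FOXP1 reached 4.68 at both stages, ARID1B 3.57 and then 4.07, and TCF7L2 4.31 and then 3.83. The FOXP1 summit of Drd4 was 1.00 times as high at E18.5 as at E15.5 (0.59 to 1.67), and its intervals overlapped those of every other list. All 6 values were below the median over all genes, and higher than 5.8% (FOXP1, E18.5) to 13.2% (TCF7L2, E15.5) of genes with a promoter peak. The summits lay from 18 bp upstream to 158 bp downstream of the TSS, those of FOXP1 in the first coding exon. ARID1B at E18.5 had 2 peaks there, and its higher summit was 372 bp upstream.

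Drd2, the main D2-like receptor, had promoter peaks at E15.5 alone. ARID1B reached 2.95, 330 bp upstream of the TSS (200 bp wide), and FOXP1 reached 3.29, 117 bp downstream, with a second summit of 3.16 in intron 1 at 413 bp. These stand near the floor of their lists, 2.33 and 2.40, and above only 2.0% and 2.1% of genes with a promoter peak. No TCF7L2 peak at either stage and no FOXP1 peak at E18.5 lay in the window of Drd2. The nearest peaks of those lists were 145 kb (TCF7L2 at E15.5 and FOXP1 at E18.5) and 122 kb (TCF7L2 at E18.5) from the TSS. A FOXP1 peak at the height of E15.5 would be just above the lowest fold that the shallower list of E18.5 holds, 3.21, so a loss could not be detected at this depth.

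Drd5, the other D1-like receptor, encoded by a single exon, had 1 promoter peak, that of TCF7L2 at E15.5 at 3.16 (29 reads, 2.16 to 4.48), 36 bp upstream of the TSS and on an exon of the non-coding gene Gm26560. It was higher than 0.7% of genes with a promoter peak in that list. Drd3, a D2-like receptor found mainly in limbic regions, had no promoter peak in any list, and the nearest peak to its first TSS lay 20.8 kb away (FOXP1, E15.5). Among the receptors, Drd1 had the highest promoter summit in 4 of 6 lists. In ARID1B at E15.5 the order was Drd4, Drd2, and Drd1, and in TCF7L2 at E15.5 Drd4, Drd1, and Drd5. Apart from the FOXP1 list of E18.5, neighbors in these orders had overlapping counting intervals.

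The promoters of 4 receptors are richer in CpG than most. In the RefSeq promoters (GRCm38.p6, 250 bases before to 50 after a start), Drd5 holds 38 CpG, Drd1 (at its first start) and Drd2 hold 23 each, Drd4 holds 15, and the start that RefSeq gives for Drd3 holds 2, against a median of 7 over 32851 promoters. Drd5, with the most CpG, had 1 promoter peak over the 6 lists, and Drd4, with fewer, had one in every list.

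Counting promoters too, the windows of the 5 receptors held 15 FOXP1 peaks at E15.5 and 10 at E18.5. They held 18 and 17 ARID1B peaks, and 10 and 13 TCF7L2 peaks. All 5 windows held at least 1 peak of ARID1B at both stages and of FOXP1 at E15.5, where 81.7% and 81.1% of all genes had one for ARID1B and 82.5% for FOXP1. In the other 3 lists, 4 of 5 windows did (all but Drd2), against 77.6% of genes for TCF7L2 at E15.5, 77.0% for FOXP1 at E18.5, and 80.2% for TCF7L2 at E18.5. Per 100 kb, the 6 lists had 1.91 to 4.78 peaks at Drd1, 2.87 to 4.79 at Drd4, 0.59 to 3.55 at Drd3, 0.97 to 2.91 at Drd5, and 0 to 1.19 at Drd2, where the medians over all genes were 1.68 to 3.17. The member peak closest to a window's edge was a FOXP1 peak of E18.5 with a fold of 5.41, 2.35 kb inside the window of Drd1. The closest peak left out was a FOXP1 peak of E15.5 with a fold of 5.44, 8.07 kb outside that window.

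**Figure D4:**
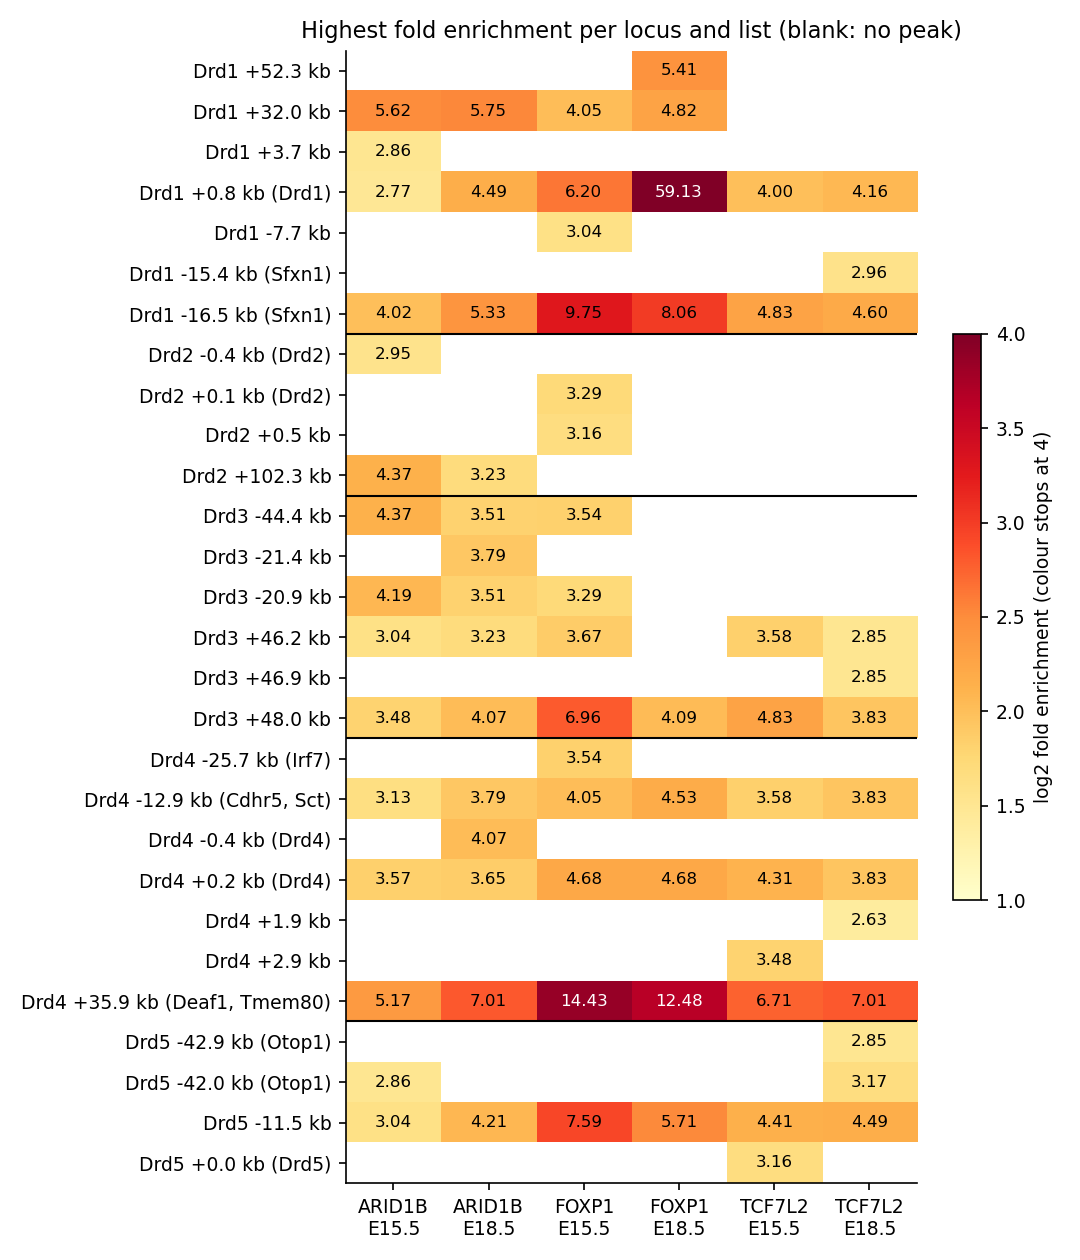
Highest fold enrichment in each of the 28 loci (rows, by distance of the middle of the locus from the receptor's TSS, with the genes whose promoter it overlaps) and each of the 6 lists (columns). Color is log2 of the fold and stops at 4, and blanks are places with no peak. The 7 rows filled in every list include the promoters of Drd1 and Drd4, the Drd3 intron locus at 48.0 kb, and the Drd5 upstream locus at 11.5 kb.

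At E15.5, 8 of 21 loci held all 3 TRs (38.1%, against 30.8% of the 80206 loci of all chromosomes) and 10 held 1 (47.6% against 42.7%). At E18.5, 7 of 20 held all 3 (35.0% against 24.3% of 74798) and 11 held 1 (55.0% against 53.5%). Over both stages 7 of the 28 loci had a peak in every list (25%, against 17.7% of 93914) and 15 in a single list (53.6% against 32.3%). With so few loci, these shares are descriptions. Without the FOXP1 list of E18.5, 8 loci had a peak in each of the other 5 lists, the Drd3 intron locus at 46.2 kb being the one added. FOXP1 at E15.5 had the highest fold in 5 of the 7, FOXP1 at E18.5 in the other 2 (the promoter of Drd1 and the locus of Sct). The FOXP1 lists also had the highest median promoter fold over all genes, 10.6 and 8.65, against 5.17 to 6.57 in the others.

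Of the 7 shared loci 2 are distal, and both stand beside receptors with little or nothing at their promoter. Upstream of Drd5, the locus 11.5 kb before the TSS is intergenic. FOXP1 reached 7.59 there at the first stage and 5.71 at the second, ARID1B 3.04 and 4.21, and TCF7L2 4.41 and 4.49. FOXP1 had the highest fold at both stages. Its counting intervals overlapped those of TCF7L2 at both stages and of ARID1B at E18.5. The 3 summits of E15.5 lay within 44 bp of each other and those of E18.5 within 217 bp.

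In the intron of Drd3 at 48.0 kb, FOXP1 reached 6.96 at the first stage and 4.09 at the second, ARID1B 3.48 and 4.07, and TCF7L2 4.83 and 3.83. The 6 summits lay within 126 bp. The FOXP1 ratio of 0.59 (0.35 to 0.95) was the other FOXP1 ratio besides that of the Drd1 promoter whose interval left out 1, and it lay below the median of 0.795 over all FOXP1 peaks, which its interval held. A neighboring locus at 46.2 kb had a peak in each list but FOXP1 at E18.5, with folds of 2.85 to 3.67. Upstream of Drd3, the loci at 44.4 kb (in an intron of the non-coding gene Gm49735) and 20.9 kb held ARID1B at both stages and FOXP1 at E15.5, and no TCF7L2.

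ARID1B had peaks at both stages at distal loci of Drd1 and Drd2. At 32.0 kb downstream of the Drd1 TSS, in intergenic sequence, ARID1B reached 5.62 at E15.5 and 5.75 at E18.5, above its own summit at the Drd1 promoter. FOXP1 reached 4.05 and 4.82 there, 1.19 times as high at E18.5 (0.70 to 2.03), and TCF7L2 had no peak at either stage. An intron of Ttc12, 102 kb downstream of the Drd2 TSS, had ARID1B alone, at 4.37 and 3.23. A FOXP1 peak of E18.5 at 52.3 kb downstream of Drd1, with a fold of 5.41, had no counterpart in another list.

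The remaining shared loci overlap promoters of neighboring genes, and some held the highest peak of the window in several lists. The locus at the promoter of Sfxn1, a mitochondrial serine transporter, has its middle 16.5 kb upstream of the Drd1 TSS. FOXP1 reached 9.75 there at E15.5, above its value at Drd1, and 8.06 at E18.5, in peaks that overlap the Sfxn1 promoter. TCF7L2 reached 4.83 and 4.60 in this locus, in peaks with summits in an intron of Sfxn1 that do not overlap its promoter. The shared promoter of Deaf1, a transcription factor, and Tmem80 lies 35.9 kb downstream of the Drd4 TSS. It held the highest peak of the Drd4 window in every list. FOXP1 reached 14.4 and, at the second stage, 12.5, ARID1B 5.17 and 7.01, and TCF7L2 6.71 and 7.01. The locus of Sct, the gene of the hormone secretin, 12.9 kb upstream of Drd4, had folds of 3.13 to 4.53. At Drd5 the promoter of Otop1, a proton channel, had 2 low peaks of TCF7L2 at E18.5, the higher at 3.17.

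**Figure D5:**
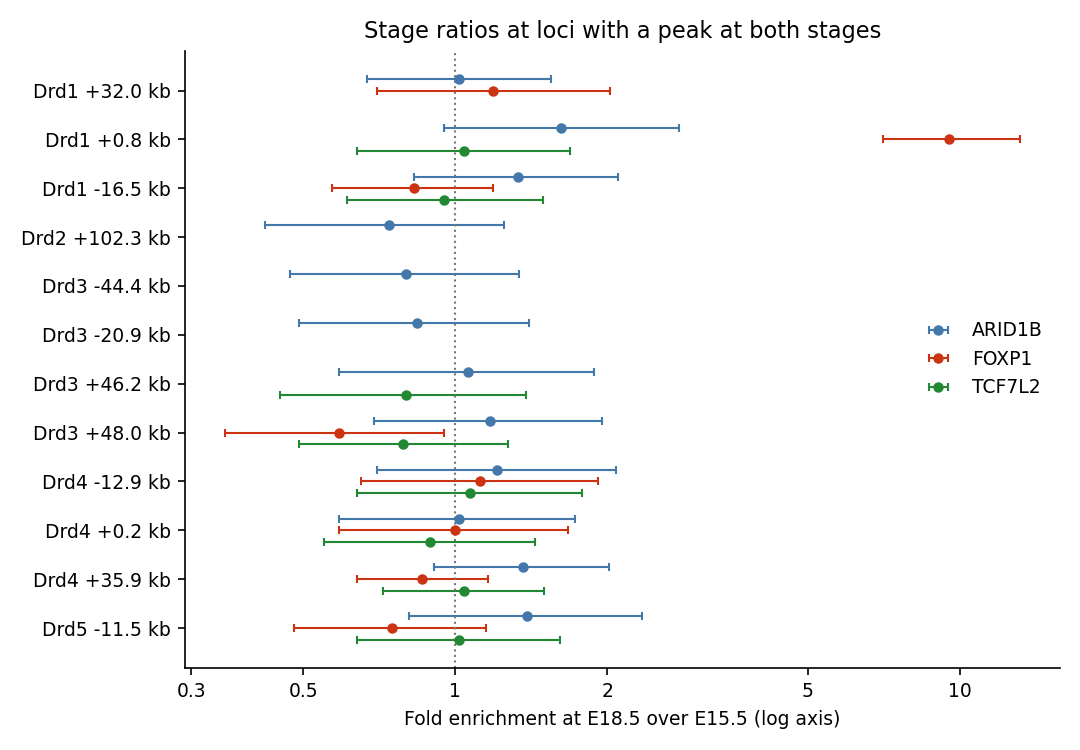
Fold enrichment at E18.5 over E15.5 (log axis) for each TR at the 12 loci with a peak at both stages, with counting intervals. Of 28 ratios, 26 have an interval that holds 1. The FOXP1 ratio at the locus of the Drd1 promoter is 9.53, between summits at different positions, and the others lie between 0.59 and 1.62.

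Ratios of the same TR between the stages were otherwise moderate. The 12 ARID1B ratios lay between 0.74 and 1.62, the highest at the Drd1 promoter (0.95 to 2.77), and the 8 TCF7L2 ratios between 0.79 and 1.07. Of the 8 FOXP1 ratios, the 7 outside the Drd1 promoter lay between 0.59 and 1.19. Every ARID1B and TCF7L2 interval held 1. At the promoter of Drd1, the folds of ARID1B and TCF7L2 were under 5 at both stages.

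Binding motifs of the TRs were sought under these summits. Both strands of the 200 bp around each summit were searched for the forkhead cores TGTTTAC and TATTTAC, the TCF/LEF core CTTTGA, and the FOXP1 and TCF7L2 consensus sequences of the study's motif table. A forkhead core was present under 1 of the 83 summits, an ARID1B summit of E15.5 in the 3′ UTR of Drd1, where it stood 8 bp from the summit. The share over all ARID1B windows was 6.01% at that stage. None was under the 25 FOXP1 summits, against 4.92% of all FOXP1 windows of E15.5 and 3.59% of those of E18.5. The TCF/LEF core was present under 2 summits, that of ARID1B at the Drd2 promoter at E15.5 (11.2% of all windows of that list) and that of a FOXP1 peak of E18.5 31.6 kb downstream of Drd1 (8.47%), and under none of the 23 TCF7L2 summits (9.73% of all TCF7L2 windows at E15.5 and 11.0% at E18.5). At these shares, 0 matches among so few windows say nothing of the TRs. The FOXP1 window holding the core is shown with the match in capitals.
Drd1 downstream locus, chr13:54023984-54024183, minus strand: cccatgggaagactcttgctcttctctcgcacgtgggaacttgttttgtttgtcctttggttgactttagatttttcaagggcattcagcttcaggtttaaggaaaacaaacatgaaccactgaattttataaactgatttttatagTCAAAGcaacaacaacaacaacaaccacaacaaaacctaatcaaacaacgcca

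The whole FOXP1 peak of E18.5 at Drd1 was searched as well. Its 2277 bp hold no forkhead core, no FOXP1 consensus, and 1 TCF/LEF core, 1814 bp downstream of the TSS and 456 bp past the summit. No share was computed for stretches of this length, so the absence of a forkhead core says nothing of FOXP1. Among the RefSeq promoters, 6.54% hold a forkhead core and 16.0% a TCF/LEF core. None of the 6 promoters that RefSeq gives for the receptors holds the first, and that of Drd2 holds the second.

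Genes that act with the receptors were described by lists of genes in the pathway. Of 14 genes of dopamine synthesis, transport, and breakdown, 6 or 7 had a promoter peak in each list, where 54.9% to 61.8% of all genes had one. Their median FOXP1 fold was 8.23 at the first stage and 6.0 at the second, where that over all genes was 10.6 and then 8.65. The highest FOXP1 values at E18.5 were at Slc18a1, a vesicular monoamine transporter (12.3 at E15.5 and 13.5 at E18.5), Pts, an enzyme of tetrahydrobiopterin synthesis (14.2 and 11.6), and Qdpr, which regenerates that cofactor (9.87 and 8.36). By ratio, Slc18a1 (1.10) and Gch1, the first enzyme of that synthesis (1.05), came first.

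Of 18 genes of receptor coupling, 16 to 18 had a promoter peak in each list, or 88.9% and more against the same 54.9% to 61.8% of all genes. Arrb2 and Arrb1, the arrestins that end receptor signaling, had FOXP1 folds of 14.05 and 13.3 at E15.5, against 13.7 and 12.3 at E18.5, and Gnb1, a G protein beta subunit, 15.6 and 11.7. The largest ratios were at Grk3, a receptor kinase (1.19), Arrb2 (0.97), and Rgs4, a regulator of G protein signaling (0.96). All 12 genes of downstream signaling had a promoter peak in every list, again against 54.9% to 61.8% of all genes. Cdk5, a neuronal kinase, had a FOXP1 fold of 23.7 followed by 17.5 at E18.5, Ppp1cc, a catalytic subunit of protein phosphatase, 17.5 and 14.5, and Prkaca, a catalytic subunit of protein kinase A, 14.2 and 11.7. The largest ratios were at Pde1b (0.93), which breaks down cyclic nucleotides, Prkar1a (0.88), a regulatory subunit of protein kinase A, and Ppp1cc (0.83).

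Of 30 other amine and muscarinic receptor genes, 18 had a FOXP1 promoter peak at the first stage and 12 at the second, 15 and 10 had one of ARID1B, and 10 and 17 one of TCF7L2. The shares of all genes were 61.8% and 54.9% for FOXP1, 58.8% and 57.3% for ARID1B, and 57.3% and 61.2% for TCF7L2. Their median folds were below those over all genes in every list, from 3.3 (ARID1B, E15.5) to 4.82 (FOXP1, E18.5), and the highest FOXP1 values at E18.5 were 6.59 at Htr1b and 6.44 at Adrb1, receptors of serotonin and noradrenaline, and 5.12 at Hrh2, a histamine receptor with no other promoter peak. The largest ratios were 1.80 at Htr1b, 1.61 at Htr4, and 1.24 at Chrm3. Over the 47 genes of the 4 lists with a FOXP1 promoter peak at both stages, the ratio ran from 0.53 to 1.80 with a median of 0.85, and over all 12038 such genes the median was 0.78 and 1 gene, Drd1, exceeded 3.

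Genes were also ranked by likeness to Drd1 over the 6 lists, among 14049 genes with a promoter peak in any list, on log2 of the promoter fold with the lowest fold of a list in place of a missing peak. By Euclidean distance the nearest were Gm11992 (1.84), Rfx8 (2.29), Dnajc12 (2.31), Hdac9 (2.32), and Irf8 (2.34). Their FOXP1 folds at E18.5 were 13.2 to 23.4, and at E15.5 8.10 to 16.6. None had a value at E15.5 as low as that of Drd1, or one at E18.5 as high. By Pearson r over the 6 lists the nearest were Rdh12 (0.99), Cyp4f13 (0.99), Syk (0.98), Arhgdig (0.98), and Rgs11 (0.98), with FOXP1 folds of 4.82 to 6.44 at E18.5. With 6 points, 1 of them far above the rest, these are descriptions.

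Promoter peaks at markers of cell types give the setting, to be read against the 54.9% (FOXP1, E18.5) to 61.8% (FOXP1, E15.5) of all genes with one. All 8 markers of cortical projection neurons and their progenitors, the labeled tissue, had a promoter peak in every list but FOXP1 at E18.5, where 6 did. Of 19 markers of striatal projection neurons, 16 (84.2%) had one of FOXP1 at the first stage and 7 (36.8%) at the second, 12 and 13 one of ARID1B, and 14 and 16 one of TCF7L2. The highest FOXP1 value among them at E18.5, 26.2, was at Foxp2 and was 1 of the exon peaks described above, and Adora2a, Rgs9, and Ppp1r1b had FOXP1 folds of 4.97 to 7.18 at E18.5 and 5.44 to 7.97 at E15.5. Of 7 interneuron markers, 6 had a promoter peak in the 4 lists of ARID1B, of FOXP1 at E15.5, and of TCF7L2 at E15.5, 2 (28.6%) in FOXP1 at E18.5, and 7 in TCF7L2 at E18.5. Of 3 oligodendrocyte lineage markers, 2 did, or 1 in FOXP1 at E18.5. None of 4 microglial markers had one in any list, and of 4 endothelial markers 1 did, in FOXP1 at E15.5 (2.91).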

How the data were processed

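Peak lists of 3 TRs at 2 stages in WT mouse cortex were analysed, 6 lists from 12 ChIP and 12 input libraries. Per the labels and methods, the authors sequenced 50 bp single-end reads, aligned them with BWA 0.7.15 to GRCm38 (mm10), kept alignments of mapping quality 30 or more (SAMtools), and used MACS2 2.2.7 to call narrow peaks on merged replicates against input (q 0.01, no model, no local background, extension to 200 bp). deepTools 3.4.3 is also named. The stated call sets no option for duplicates, and the default of MACS2 keeps 1 read per position and strand. The deposited lists hold positions, a ratio (fold enrichment at the summit over 1 background per list, after scaling to the smaller library, with a pseudocount of 1), and −log10 of the p-value and of the q-value. The deposited score was not used.

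The depth was recovered from the deposited fold and −log10 p under the Poisson model of MACS2, taking an effective genome of 1.87e9 bp, which gave whole reads (within 0.1) for 100% of summits. Smaller libraries held 26.3 to 80.7 M reads. Every nuclear peak ended within its GRCm38 chromosome. TSSs came from all transcripts of GENCODE vM21, and a promoter is the 2000 bp before a TSS. Distances run along the gene from the first TSS of a protein-coding transcript. Loci are unions of overlapping peaks of all lists. Ratios carry exact binomial (Clopper-Pearson) intervals of the reads. Without replicate lists no test between lists was possible. Depth recovery and overlaps were tested on simulated data.

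The 5 receptors, the 4 pathway lists (74 genes, all matched), the marker lists (3 of the 19 striatal markers, Ppp1r1b, Rgs9, and Pde10a, are also in pathway lists), and the alternatives were chosen with earlier results of these data known. Named genes were the receptors, genes with the highest peak of a window, and per list up to 3 genes of highest FOXP1 fold at E18.5 and up to 3 of largest stage ratio, 1 of which is not reported here. Foxp2, Dixdc1, Lamp1, Mfsd1, and the 3 other striatal markers given with values were chosen after their values were seen. Sct, Otop1, and genes named only as the annotation under a peak fell outside these rules. Python 3.11.15, numpy 2.4.6, pandas 2.3.3, scipy 1.17.1, and matplotlib 3.10.9 were used.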

Additional observations from a re-analysis of the deposited data

How the results depend on the processing

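No paired analysis was possible because each list stands for merged replicates, and leaving out a replicate was not run for the same reason. The FOXP1 ratio at Drd1 of 9.53 was 6.07 when the highest summit of the whole window was taken, since the E15.5 value then came from the Sfxn1 promoter, 13.5 as a ratio of −log10 p, and 23.8 percentage points as a difference of percentile rank. The ratios rest on the summit at the read ceiling and are lower limits as well. Peaks with −log10 p of at least 15 left 0 receptors with a promoter peak for ARID1B and TCF7L2 at either stage and 1 (Drd1) for FOXP1 at E18.5, where 43.1% and 40.1% of all genes (ARID1B), 44.5% and 50.5% (TCF7L2), and 41.7% (FOXP1, E18.5) kept one. A common height (a fold of at least 3.21, the floor of the shallowest list) left 1 (Drd4) for ARID1B at E15.5. Asking for the summit inside the promoter left 1 (Drd4) for FOXP1 at E18.5, since the Drd1 summit lies in the gene. With the lists in the order ARID1B, FOXP1, TCF7L2 of E15.5 followed by the same of E18.5, a flank of 10 kb gave 7, 7, 6, 6, 3, and 6 peaks, a flank of 100 kb 35, 34, 25, 35, 23, and 28, and −log10 p of at least 15 gave 5, 6, 1, 4, 3, and 3. The common height gave 10 peaks for ARID1B at E15.5 and 7 for TCF7L2 at E18.5, and leaving out promoters of other genes gave 8 for TCF7L2 at E18.5. Pathway genes with a promoter peak at −log10 p of at least 15 numbered 26 and 25 for ARID1B and 24 for FOXP1 at E18.5, against 51, 45, and 48 of 74 without that threshold, beside the same shares of all genes. The TCF/LEF core was under 0 summits in windows of 100 bp. Chosen after seeing the data, the common height left 4 of 7 loci in every list, and −log10 p of at least 15 left Drd1 first in 2 lists. Of 96 alternative values for the receptors, their loci and motifs, and the pathway genes, 59 stayed within 1.5 times the reported count or within the counting interval. For the shares of all genes, 17 alternative values left the 95% binomial interval of the reported share and 1 stayed. Depth limits absences most in FOXP1 at E18.5, whose floor of 3.21 lies above several folds of the other lists.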

Other observations

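The peaks of the FOXP1 list of E18.5 had a median width of 486 bp, and those with a fold above 20 a median of 807 bp. The 15 peaks of that list in Foxp2 with a fold of at least 10 and no peak at E15.5 were 383 to 630 bp wide, 14 of them on coding exons, and the 5 on coding exons of Dixdc1 were 362 to 401 bp wide. Foxp2 held 16 peaks of that list and 14 peaks of FOXP1 at E15.5, none of the latter with a summit in a coding exon. Of all 3510 FOXP1 peaks of E18.5 with a fold of at least 10, 45.8% had their summit in an exon, as did 20 of the 52 that were absent or at least 3 times lower at E15.5.

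Of the 20 highest nuclear FOXP1 peaks at E18.5, 17 had a FOXP1 peak at E15.5, and the other 3 were coding exons of Foxp2. After the promoters of Lamp1 and Mfsd1, the next in height were 2 intergenic peaks on chromosomes 6 and 16, with folds of 46.5 and 45.7 at E18.5 and 32.7 and 30.6 at E15.5, and so were already high at the earlier stage.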
